A study of Mus musculus with 18 samples.

Results

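The costimulatory and checkpoint ligands are the surface proteins through which a macrophage passes a second signal to a T cell. The 7 genes described here were chosen by symbol as a family, with earlier results of these data known: Cd80, Cd86, Icosl, Cd40, Tnfsf9, Cd274 and Pdcd1lg2. All 7 were among the 32789 genes of the count table and among the 12900 genes that passed the filter on low counts. They were measured by RNA sequencing of polyA RNA from alveolar macrophages, the resident phagocytes of the airspaces, recovered by bronchoalveolar lavage and enriched with CD11c beads. The Vhl/Hif1a knockout, made with CD11c-Cre, was set against its own control, which the labels describe by conditional (flox) Vhl and Hif1a alleles. The Vhl/Hif2a knockout, made with CD11c-Cre, was set against a control with flox Vhl and Hif2a alleles, Hif2a being the gene Epas1. The triple knockout, CD11c-Cre with Vhl, Hif1a and Hif2a targeted, was set against a control with flox alleles of all 3 genes. Each of the 6 groups had 3 libraries, 18 in all. The labels do not give age, sex or strain, do not say whether the controls carried Cre, and do not say whether libraries came from separate mice, so p-values measure the spread between these libraries, which may be technical. CD11c is also made by dendritic cells, so neither the beads nor the Cre driver is restricted to alveolar macrophages.

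CD80 and CD86 bind CD28 and CTLA-4 on T cells, and ICOS ligand, encoded by Icosl, binds ICOS. CD40 is a receptor on the antigen-presenting cell that answers CD40 ligand on the T cell, and 4-1BB ligand, encoded by Tnfsf9, binds 4-1BB on activated T cells. PD-L1, encoded by Cd274, and PD-L2, encoded by Pdcd1lg2, bind PD-1 and restrain the T cell. VHL marks the HIF alpha subunits for destruction in oxygen, so loss of Vhl with Hif1a leaves HIF-2α, loss of Vhl with Hif2a leaves HIF-1α, and the triple knockout leaves neither. CD274 has been described elsewhere as a direct HIF target in hypoxic myeloid cells.

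Library totals ran from 19230452 to 34015320 counts. Vhl RNA fell in the Vhl/Hif1a, Vhl/Hif2a and triple knockouts (log2 fold changes -2.55, -3.05 and -2.56, each ± 0.16 SE; edgeR adjusted p 8.8e-08, 7.6e-10 and 1.2e-07). Hif1a fell in the Vhl/Hif2a knockout (-1.71 ± 0.18, edgeR adjusted p 4.3e-06) and Epas1 rose there (0.97 ± 0.19, edgeR adjusted p 0.0019); neither was called in the other knockouts, and whole-gene counts do not check an exon deletion. Egln3, a HIF target gene chosen for this check after its values were seen, had 32.5 CPM in Vhl/Hif1a control 3 against 0.464 and 0.617 CPM in the other libraries of that group. In the Vhl/Hif2a control it had 11.5, 2.47 and 0.465 CPM. Egln3 had 391, 548 and 515 CPM in the Vhl/Hif1a knockout and 325, 289 and 335 CPM in the Vhl/Hif2a knockout. It had 0.206, 0.162 and 0.428 CPM in the triple knockout. Triple control 2 stood apart from its group, with a lowest correlation of 0.9771. Marker sums of alveolar macrophages were 23500 to 40600 CPM over all libraries. The 10 T and NK cell markers summed to 0.0662 to 0.971 CPM, none of them passed the filter, and Ncr1 was at 0 in every library. The 6 B cell markers summed to 0.116 to 0.962 CPM, with Pax5 at 0 throughout.

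The ligands changed most in the Vhl/Hif2a knockout. There Cd80, Cd86, Icosl and Cd40 fell, 4 of the 6 members other than Tnfsf9, where 14.7% of all genes tested were called (7.01% lower and 7.68% higher). Tnfsf9 rose there, but it passed the filter on low counts through that same group, so it is given as a value and left out of this count. The Cd40 fall rests on few counts with overlapping ranges, and lost its call in 18 of 26 alternatives tried. Cd80 and Icosl also fell in the Vhl/Hif1a knockout, 2 of 7, against 3.64% of all genes (1.42% lower). In the triple knockout none was called by edgeR, against 0.0388% of all genes; none of the 7 had an unadjusted p under 0.05 there, against 1484 genes in all, and none was called by DESeq2 or limma-voom. The median log2 fold change over all 7 members was -0.55 in the Vhl/Hif2a knockout, -0.27 in the Vhl/Hif1a knockout and 0.02 in the triple knockout, against 0, 0 and -0.01 over all genes tested. A call is a Benjamini-Hochberg adjusted p under 0.05 in the edgeR quasi-likelihood test over all genes, and CPM is the read count relative to the TMM-scaled library size. In bulk RNA, fewer cells of a type and less RNA per cell cannot be told apart.

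**Figure D1:**
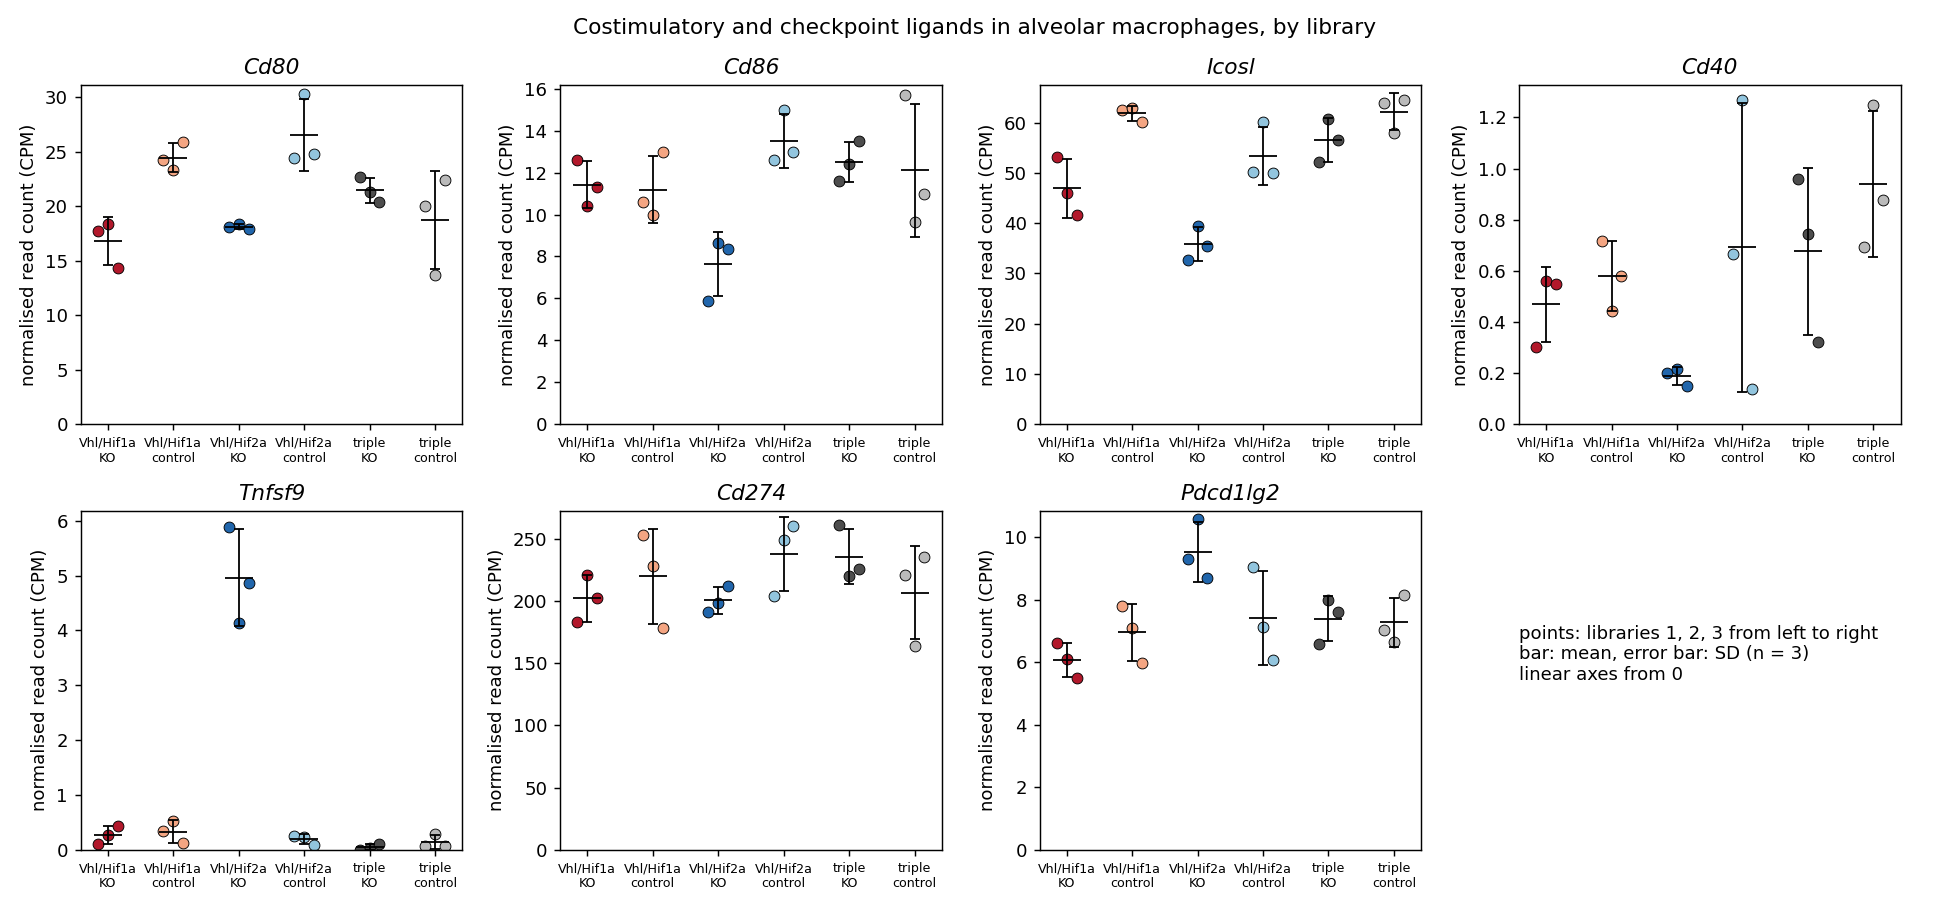
Normalised read count (CPM, linear axes from 0) of each ligand in each library of the 6 groups, with the mean and SD (n = 3). Tnfsf9 sits between 4.13 and 5.89 CPM in the Vhl/Hif2a knockout and at most at 0.529 CPM elsewhere, and Cd274 spans 164 to 261 CPM over all libraries.

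Before the values by group, the levels of the genes themselves are compared per kilobase of exon (RPKM), since the transcripts differ in length. Cd274 was the most abundant ligand in every group, at means of 55.3 to 65.5 RPKM. Icosl came next at 7.77 to 13.5 RPKM, then Cd80 at 4.54 to 7.15, Pdcd1lg2 at 3.1 to 4.85 and Cd86 at 2.09 to 3.69 RPKM. The ranges of group means of Cd80 and Pdcd1lg2 overlapped, as did those of Pdcd1lg2 and Cd86. Cd40 was near the limit of detection at 0.0553 to 0.276 RPKM. Tnfsf9 averaged 3.85 RPKM in the Vhl/Hif2a knockout and 0.036 to 0.254 RPKM in the other groups.

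RefSeq promoter sequences (GRCm38.p6) were matched for 4 of the 7 genes. They are shown because HIF binds a short core, ACGTG or GCGTG, and because the most abundant ligand and a ligand that fell can be set side by side. Bases from the 250 before the RefSeq start are printed 5′ to 3′, with any match to the core on either strand in capitals. For Cd274, 185 of the 250 bases fall in exons of Plgrkt, the neighbouring gene on the other strand. The match lies outside the longest exon-free stretch, so the 30 bases around it are given without leaving off exon bases. For Icosl the 66 bases that GENCODE M21 puts in its first exon were left off, and for Cd80 all 250 are given.
Cd274 chr19:29367224-29367253 plus strand: tactggaattaagGCGTGtgtcaccgcacc
Icosl chr10:78069118-78069301 plus strand: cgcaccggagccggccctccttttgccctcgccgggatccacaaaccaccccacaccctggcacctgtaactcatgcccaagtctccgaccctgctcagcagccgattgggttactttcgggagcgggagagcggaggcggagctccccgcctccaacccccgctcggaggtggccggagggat
Cd80 chr16:38458683-38458932 plus strand: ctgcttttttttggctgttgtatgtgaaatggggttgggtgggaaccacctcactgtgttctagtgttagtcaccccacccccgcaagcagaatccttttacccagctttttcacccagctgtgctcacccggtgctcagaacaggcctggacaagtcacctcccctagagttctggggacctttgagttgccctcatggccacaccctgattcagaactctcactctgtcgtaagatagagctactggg
The Cd274 window held the core at position -201 from the start, and again 39 bases after it on the other strand, beyond the bases printed. Icosl, Cd80 and Pdcd1lg2 held no match within 300 bases (250 before and 50 after the start). The core is common: 43.8% of 32851 RefSeq promoters of this length hold it. The RefSeq start of Cd80 lies inside the gene as GENCODE M21 draws it, and all these matches are descriptions of letters.

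Icosl fell in both the Vhl/Hif2a and the Vhl/Hif1a knockout. The gene (ENSMUSG00000000732, protein coding) lies at chr10:78069302-78083913 on the plus strand of GRCm38. It had 32.7, 39.5 and 35.5 CPM in the Vhl/Hif2a knockout, against 50.1, 60.1 and 50 CPM in its control. Every knockout library lay below every control library, and 16.6% of all genes were lower and separated in this way in that comparison. The fall was -0.57 ± 0.10 on the log2 scale, to 67.2% of the control (edgeR adjusted p 0.00094), and it was called in all alternatives tried. In the Vhl/Hif1a knockout Icosl had 53.2, 46.1 and 41.6 CPM, against 62.5, 63 and 60.2 CPM in its control. These libraries did not overlap either, as for 12% of all genes there, and the log2 fold change was -0.40 ± 0.10 (edgeR adjusted p 0.039). In the triple knockout Icosl had 52.1, 60.8 and 56.6 CPM, against 64, 58 and 64.6 CPM in its control, with ranges that overlapped (-0.14 ± 0.10, edgeR adjusted p 0.49, 95% interval -0.36 to 0.08). The Vhl/Hif2a effect was not shown to differ from the triple effect (-0.43 ± 0.15, edgeR adjusted p 0.079), nor the Vhl/Hif1a effect from the Vhl/Hif2a effect (0.18, 95% interval -0.14 to 0.49). By mean level the Vhl/Hif2a knockout stood lowest, clear of the next group, and the other 5 groups overlapped with their neighbours.

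Cd80 (ENSMUSG00000075122, chr16:38455561-38496335, plus strand) fell by similar amounts in those knockouts. It had 18.1, 18.4 and 17.9 CPM in the Vhl/Hif2a knockout, against 24.4, 30.3 and 24.8 CPM in its control (-0.55 ± 0.14, edgeR adjusted p 0.015). It had 17.7, 18.4 and 14.3 CPM in the Vhl/Hif1a knockout, against 24.2, 23.3 and 25.9 CPM in its control (-0.54 ± 0.14, edgeR adjusted p 0.046). No knockout library reached any library of its control in either comparison. The effects themselves differed by 0.01 (95% interval -0.44 to 0.45). In the triple knockout Cd80 had 22.7, 21.3 and 20.4 CPM, against 20, 13.7 and 22.4 CPM in its control, whose library 2 was the lowest of all 18 (0.20 ± 0.14, edgeR adjusted p 0.48, 95% interval -0.11 to 0.51). The Vhl/Hif2a effect was lower than the triple effect (-0.75 ± 0.20, edgeR adjusted p 0.03). Cd80 was also higher in the Vhl/Hif2a control than in the triple control (0.50 ± 0.14, edgeR adjusted p 0.064), which enters this difference. Cd86 was the other member called in that contrast, in which 7.99% of all genes were called. Tnfsf9 is left out of this count, since it passed the filter on low counts through the Vhl/Hif2a knockout. For Cd80 the Vhl/Hif1a effect minus the triple effect was -0.74 ± 0.20 and not called (edgeR adjusted p 0.078, where 2.04% of all genes were called). The Vhl/Hif1a calls are the less firm: leaving out any library of that cross ended the call of Cd80 (edgeR adjusted p 0.076 to 0.23), and that of Icosl (0.092 to 0.21) except without knockout 1; both calls were also lost without Vhl/Hif2a knockout 3 or triple knockout 3. The Cd80 fall in the Vhl/Hif2a knockout lost its call without knockout 1 (0.052), knockout 3 (0.051) or control 2 (0.085).

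Cd86 (ENSMUSG00000022901, chr16:36603869-36666081, minus strand) fell in the Vhl/Hif2a knockout. It had 5.89, 8.66 and 8.37 CPM there, against 12.6, 15 and 13 CPM in its control, and the ranges were apart (-0.82 ± 0.18, edgeR adjusted p 0.0042). This call held in all alternatives tried. Levels in the Vhl/Hif1a cross were 12.6, 10.4 and 11.3 CPM in the knockout, against 10.6, 9.96 and 13 CPM in the control, which overlapped (0.03 ± 0.18, edgeR adjusted p 0.98, 95% interval -0.36 to 0.41). In the triple cross the knockout had 11.6, 12.4 and 13.5 CPM, against 15.7, 9.65 and 11 CPM in the control (0.04, edgeR adjusted p 0.91, 95% interval -0.34 to 0.42). The Vhl/Hif2a effect was lower than the triple effect (-0.87 ± 0.25, edgeR adjusted p 0.04), while the Vhl/Hif1a effect was not shown to differ from the Vhl/Hif2a effect (0.85 ± 0.25, edgeR adjusted p 0.10; 2.44% of all genes were called). The Vhl/Hif2a knockout again stood lowest in the order of groups, and the other 5 overlapped with their neighbours.

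Cd40 (ENSMUSG00000017652, chr2:165055627-165072948, plus strand) was read by very few counts. The Vhl/Hif2a knockout libraries held 6, 7 and 5 counts (0.198, 0.217 and 0.149 CPM), against 13, 33 and 3 counts (0.664, 1.27 and 0.139 CPM) in their control. The ranges overlapped, since control 3 had the lowest CPM of the 6 libraries. edgeR called it lower (-1.88 ± 0.61, adjusted p 0.047), and the exact permutation test gave p = 0.4 (two-sided). Without Vhl/Hif2a control 2 the log2 fold change was -1.06 (edgeR adjusted p 0.36), so the size rests on that library. In the Vhl/Hif1a cross Cd40 had 0.3, 0.559 and 0.547 CPM in the knockout, against 0.717, 0.441 and 0.578 CPM in the control, and in the triple cross 0.961, 0.745 and 0.321 CPM in the knockout, against 0.691, 1.25 and 0.878 CPM in the control. Both pairs overlapped and neither was called (edgeR adjusted p 0.90 and 0.64).

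Tnfsf9 had the largest change of the 7. The gene (ENSMUSG00000035678, chr17:57105325-57107757, plus strand) had 177.94, 132.93 and 163.03 expected counts in the Vhl/Hif2a knockout, against 5, 6 and 2 counts in its control. In CPM this was 5.89, 4.13 and 4.87 in the knockout, against 0.256, 0.232 and 0.0929 in the control, a log2 fold change of 4.65 ± 0.58 (25-fold, edgeR adjusted p 2.6e-05). It ranked number 29 from the top among the 12900 log2 fold changes. Rounded, the 3 knockout libraries held 474 counts and the 3 controls 13, a ratio per scaled library of 25.5 with an exact 95% interval of 14.8 to 48.2 that covers counting error only. Tnfsf9 passed the filter through the Vhl/Hif2a knockout, where all 3 libraries were above the limit of 0.381 CPM; only 2 libraries elsewhere were. It was therefore tested because of the group in which it is high, which also holds for its differences between effects. The call held in all alternatives (log2 fold change 4.3 to 4.86).

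Outside that group Tnfsf9 was close to 0. The Vhl/Hif1a knockout had 0.113, 0.261 and 0.43 CPM, against 0.338, 0.529 and 0.116 CPM in its control (-0.27 ± 0.63, edgeR adjusted p 0.93). The triple knockout had 0, 0.0324 and 0.107 CPM, from 0, 1 and 3 counts, against 0.0658, 0.291 and 0.0764 CPM in its control (-1.51 ± 0.93, edgeR adjusted p 0.44; count ratio 0.333, 95% interval 0.0773 to 1.12). Most of the control counts came from triple control 2, with 7 counts, and leaving that library out gave -0.59. Neither change was called at these low counts. The 95% intervals were -1.65 to 1.11 in the Vhl/Hif1a knockout and -3.53 to 0.51 in the triple knockout. Both leave out a rise as large as the 4.65 of the Vhl/Hif2a knockout, while smaller changes could be missed. The Vhl/Hif1a effect was lower than the Vhl/Hif2a effect by 4.92 ± 0.87 on the log2 scale (log2 difference -4.92, edgeR adjusted p 0.0036), and the Vhl/Hif2a effect was higher than the triple effect (6.16 ± 1.11, edgeR adjusted p 0.0019; 5.23, edgeR adjusted p 0.025 without triple control 2).

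An antisense gene, Gm11110, a lincRNA, overlaps the start of Tnfsf9 (chr17:57091370-57105942, minus strand). It had 81, 92 and 81 counts in the Vhl/Hif2a knockout, against 4, 9 and 0 counts in its control (3.77 ± 0.76, edgeR adjusted p 0.0024), and at most 6 counts in any other library. The library kit is directional, but the strand setting of the counting is not given in the sources used here, so reads of the pair cannot be told apart. With the counts of both genes joined, the log2 fold change in the Vhl/Hif2a knockout was 4.3 (edgeR adjusted p 8.3e-06). Gm11110 was singled out after its values were seen.

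**Figure D2:**
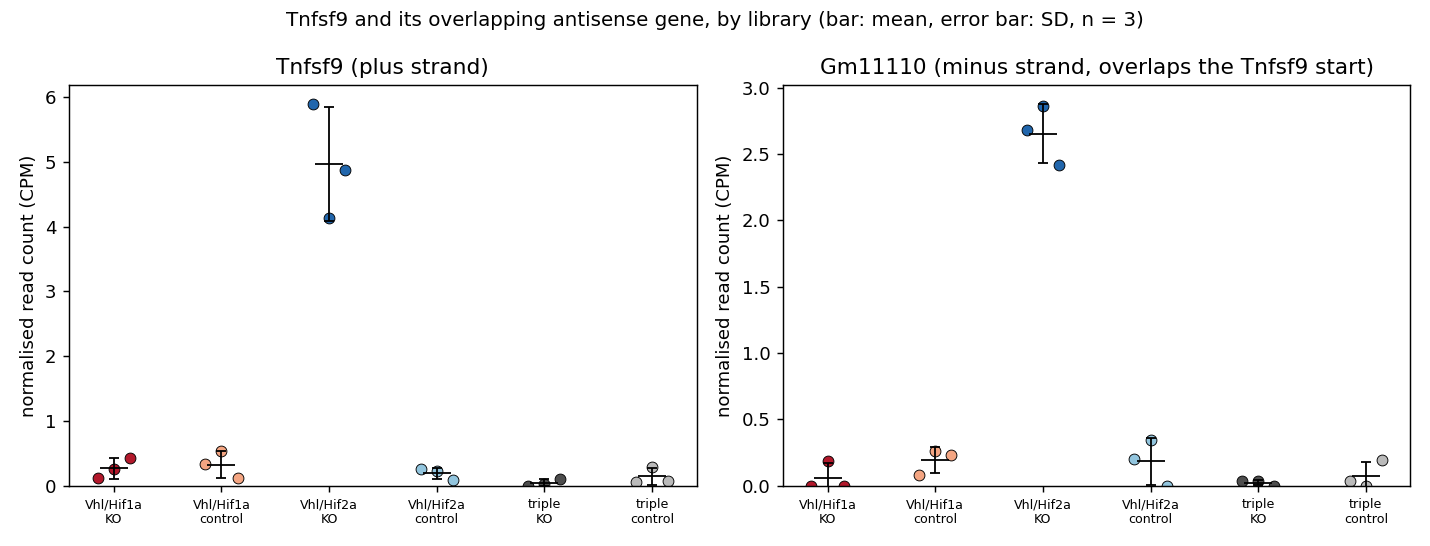
CPM of Tnfsf9 (left) and of the antisense gene Gm11110 (right) by library, with the mean and SD (n = 3). Both are raised in the 3 Vhl/Hif2a knockout libraries, 4.13 to 5.89 CPM and 2.42 to 2.86 CPM, and neither exceeds 0.529 CPM elsewhere.

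Cd274 (ENSMUSG00000016496, chr19:29367455-29388095, plus strand), the most abundant member and, of the 4 promoter windows, the holder of the HIF core matches, was not called in any knockout. It had 183, 221 and 202 CPM in the Vhl/Hif1a knockout, against 253, 228 and 178 CPM in its control (-0.12 ± 0.14, edgeR adjusted p 0.82, 95% interval -0.43 to 0.19). It had 191, 198 and 212 CPM in the Vhl/Hif2a knockout, against 204, 249 and 260 CPM in its control (-0.25 ± 0.14, edgeR adjusted p 0.30, 95% interval -0.56 to 0.06). In the triple knockout it had 261, 220 and 226 CPM, against 221, 164 and 235 CPM in its control (0.19, edgeR adjusted p 0.49, 95% interval -0.12 to 0.50). All 3 pairs of groups overlapped, and the highest group mean was 1.19 times the lowest. The intervals leave out a rise of 0.19 or more in the Vhl/Hif1a knockout and of 0.06 or more in the Vhl/Hif2a knockout.

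Pdcd1lg2 (ENSMUSG00000016498, chr19:29410919-29471161, plus strand) lies 22.8 kb downstream of Cd274. It had 9.3, 10.6 and 8.7 CPM in the Vhl/Hif2a knockout, against 9.05, 7.14 and 6.09 CPM in its control. The ranges overlapped through control 1, and the log2 fold change of 0.36 ± 0.15 was not called (edgeR adjusted p 0.14, 95% interval 0.03 to 0.69). Without that control it was 0.52 (edgeR adjusted p 0.041). The Vhl/Hif1a knockout had 6.61, 6.11 and 5.51 CPM, against 7.81, 7.09 and 5.98 CPM in its control (-0.19 ± 0.16, edgeR adjusted p 0.71), and the triple knockout had 6.59, 8 and 7.6 CPM, against 7.04, 6.66 and 8.17 CPM in its control (0.02, edgeR adjusted p 0.95). Over the 18 libraries, which share groups, Cd274 and Pdcd1lg2 correlated at r = -0.05, as a description. Antisense genes overlap both, AC119228.1 for Cd274 and A930007I19Rik for Pdcd1lg2, so the limit stated for Tnfsf9 holds for them too.

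**Figure D3:**
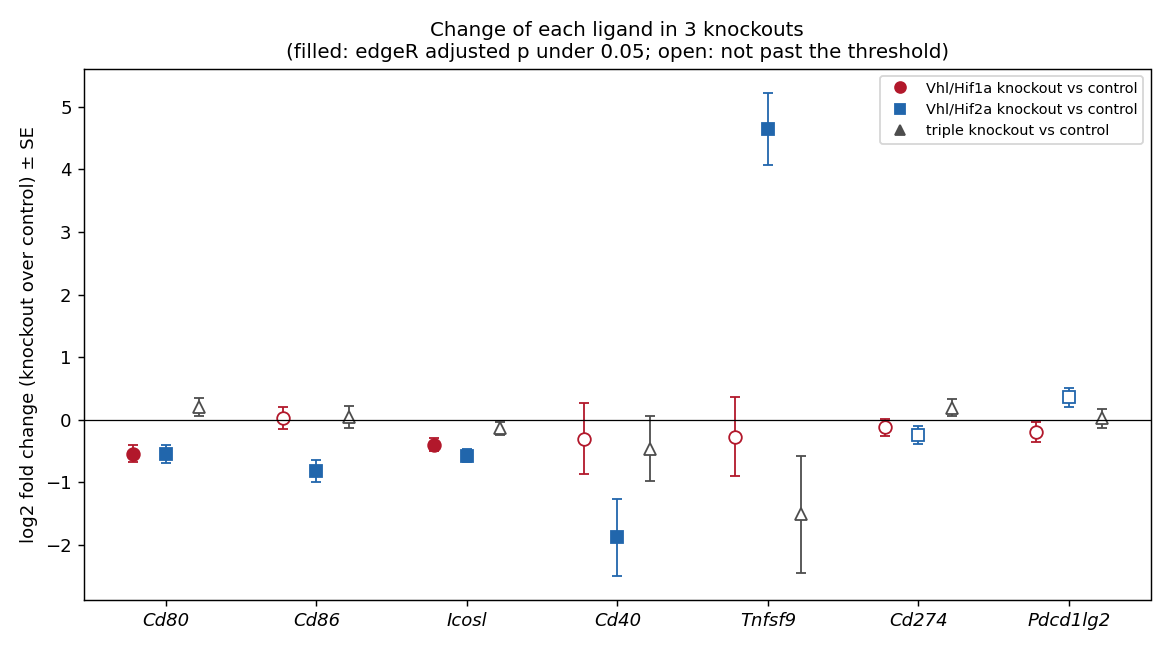
Log2 fold change (knockout over control, ± SE) of each ligand in the Vhl/Hif1a, Vhl/Hif2a and triple knockouts; filled symbols passed an edgeR adjusted p of 0.05. Filled points are Cd80 and Icosl in the Vhl/Hif1a knockout and Cd80, Cd86, Icosl, Cd40 and Tnfsf9 in the Vhl/Hif2a knockout.

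Control groups were also compared, since they carry different conditional alleles. None of the 7 ligands was called between any pair of controls by edgeR, against 0.341%, 5.4% and 3.42% of all genes for Vhl/Hif1a against Vhl/Hif2a, Vhl/Hif1a against triple and Vhl/Hif2a against triple. At an unadjusted p under 0.05 there were 0, 1 and 2 members. The nearest was Cd80, higher in the Vhl/Hif2a control than in the triple control (0.50 ± 0.14, edgeR adjusted p 0.064), which DESeq2 called.

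Each exact permutation test of 3 libraries against 3 can reach no lower than p = 0.1, two-sided. It reaches this wherever the ranges do not overlap, as for every called member except Cd40. In the Vhl/Hif2a and Vhl/Hif1a knockouts 16.6% and 12% of all genes were lower and separated in this way. Uncalled Cd80 reached it too, in the Vhl/Hif1a and the Vhl/Hif2a control against the triple control. Uncalled Icosl reached it between the Vhl/Hif1a and Vhl/Hif2a controls.

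A wider list of 27 other T cell ligands and modulators had 18 tested genes. Among all genes tested, 14.7% were called in the Vhl/Hif2a knockout (7.01% lower and 7.68% higher). The shares were 3.64% in the Vhl/Hif1a knockout and 0.0388% in the triple knockout. In the Vhl/Hif2a knockout 3 rose and 5 fell, with a list median of -0.17 against 0 over all genes. Ceacam1, which binds itself across cells and restrains T cells, had 10.9 ± 1.95 CPM in the knockout and 3.85 ± 0.153 CPM in the control (1.5 ± 0.21, edgeR adjusted p 7.7e-05; means ± SD, n = 3). Pvr, a ligand of the receptors TIGIT and CD226, had 9.07 ± 1.07 CPM in the knockout and 4.89 ± 1.07 CPM in the control (0.90 ± 0.18, edgeR adjusted p 0.0021). Lgals3, encoding galectin-3, also rose (0.41, edgeR adjusted p 0.029). The genes that fell were Cd276, a B7 family ligand (-2.23 ± 0.37, edgeR adjusted p 0.00051), Lgals9, encoding galectin-9 (-0.85, 4.2e-05), the adhesion ligand Icam1 (-0.65, 0.014), the inhibitory receptor Btla (-2.22, 0.012) and Il12b, encoding the shared subunit of IL-12 and IL-23 (-2.80, 0.00047). Btla and Il12b averaged under 2 CPM in the control. The count of falls was 3 without Vhl/Hif2a knockout 1 or 3, and the count of rises was 2 without knockout 1, knockout 2 or any of its 3 controls.

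Of these 18 genes, 3 rose and 2 fell in the Vhl/Hif1a knockout, with a median of -0.12. Ceacam1 had 12.2 ± 3.37 CPM in the knockout and 4.28 ± 0.43 CPM in the control (1.51 ± 0.21, edgeR adjusted p 0.0002). Lgals3 rose (0.60, edgeR adjusted p 0.0062), as did Il15, a cytokine for T and NK cells (0.73, 0.04), while Lgals9 fell (-0.76, 0.00034) and Icam1 fell (-0.68, 0.031). The count of falls was 1 without knockout 1 or 2 or control 1 or 2 of that cross, and under the replicate block. None of the 18 was called in the triple knockout by edgeR, DESeq2 or limma-voom, and 5 had an unadjusted p under 0.05. Of the differences between effects, Il12b was the single listed gene called between the Vhl/Hif1a and Vhl/Hif2a effects (2.64 ± 0.63, edgeR adjusted p 0.031). In that contrast 2.44% of all genes were called. For the Vhl/Hif2a effect minus the triple effect, 4 of the 18 were higher and 3 lower by edgeR, against 7.99% of all genes called. For the Vhl/Hif1a effect minus the triple effect, 2 were higher and 1 lower, against 2.04% of all genes.

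**Figure D4:**
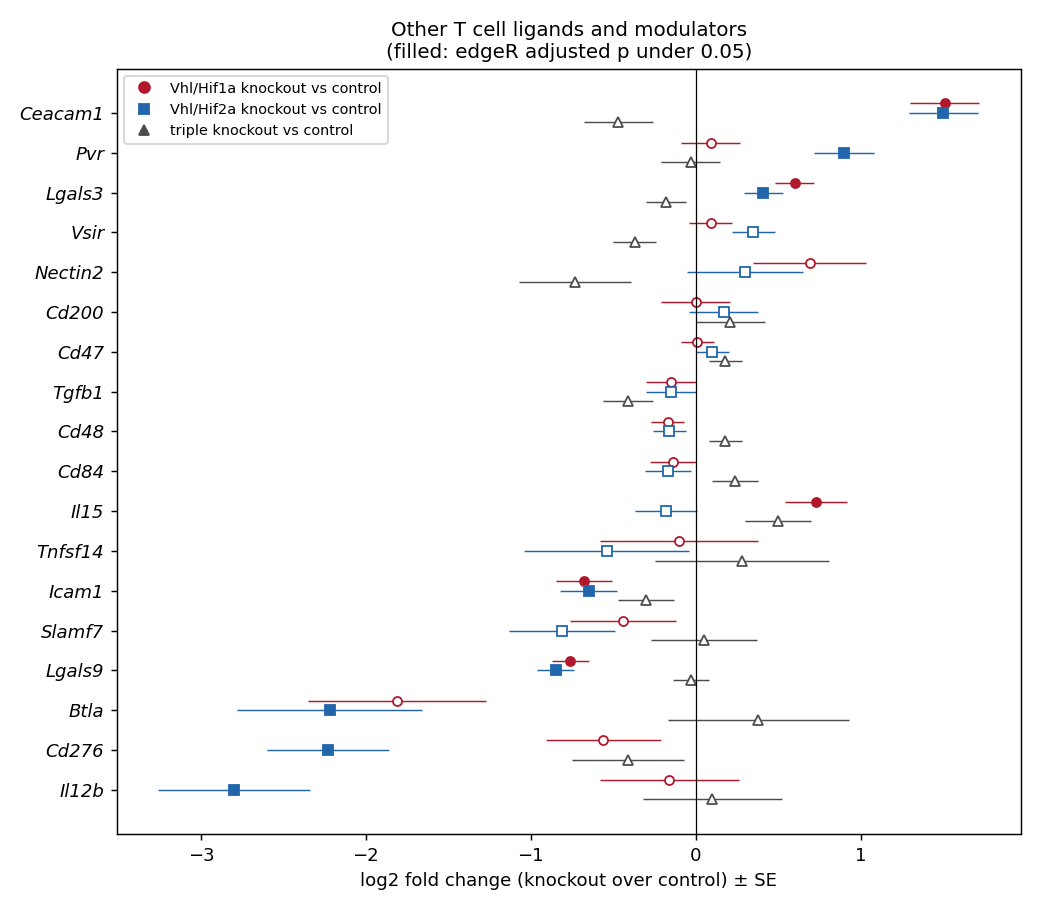
Log2 fold change (knockout over control, ± SE) of the 18 tested genes of the wider list, ordered by the Vhl/Hif2a knockout; filled symbols passed an edgeR adjusted p of 0.05. Ceacam1, Lgals3, Lgals9 and Icam1 are filled in the same direction in the Vhl/Hif1a and Vhl/Hif2a knockouts, and no triple knockout point is filled.

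Genes upstream of these ligands were counted too. Of all genes tested, 14.7% were called in the Vhl/Hif2a knockout and 3.64% in the Vhl/Hif1a knockout. The Vhl/Hif2a counts of the NF-kB and PD-L1 stability lists below are near that 14.7%, and are given as values only. Of 15 CD40 and NF-kB signalling genes, none was called in the Vhl/Hif1a or triple knockout by edgeR, DESeq2 or limma-voom (1 and 2 at an unadjusted p under 0.05). In the Vhl/Hif2a knockout 1 rose, Nfkbia, an inhibitor of NF-kB (0.64, edgeR adjusted p 0.031), and 2 fell: Traf1, an adaptor of TNF receptors (-2.03 ± 0.39, 0.0014), and Nfkb1 (-0.30, 0.0069). Nfkbia lost its call without any 1 of the 3 Vhl/Hif2a knockouts, control 1 or control 3, and under the replicate block; the count of falls was 4 without control 3 or triple control 2. Of 10 interferon gamma signalling genes, 4 fell in the Vhl/Hif2a knockout by small amounts, among them Jak2 (-0.44), Irf8 (-0.37) and Stat3 (-0.23), with edgeR adjusted p of 0.037, 0.036 and 0.028; without Vhl/Hif2a knockout 1 or control 3 none of the 10 was lower by edgeR. None of them was called in the Vhl/Hif1a or triple knockout by edgeR, DESeq2 or limma-voom (2 and 0 at an unadjusted p under 0.05). Of 9 genes for PD-L1 protein stability, B3gnt3, named after its values were seen, rose in the Vhl/Hif2a knockout (1.36 ± 0.14, edgeR adjusted p 2.7e-06) and, with a log2 fold change of 0.66, in the Vhl/Hif1a knockout (adjusted p 0.01), and none of the 9 was called in the triple knockout by edgeR, DESeq2 or limma-voom (1 at an unadjusted p under 0.05). The B3gnt3 call in the Vhl/Hif1a knockout was lost without knockout 2 or control 2.

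MHC class II genes have products that carry the first signal to CD4 T cells. Their counts stand beside 3.64% of all genes called in the Vhl/Hif1a knockout and 14.7% in the Vhl/Hif2a knockout (7.01% lower). Of 8 such genes, 6 rose in the Vhl/Hif1a knockout and none was called lower by edgeR, DESeq2 or limma-voom, with sums of 7630 to 9890 CPM against 665 to 1330 CPM in its control, while the ligands Cd80 and Icosl were lower there. In the Vhl/Hif2a knockout 3 of 8 fell (737 to 1040 CPM against 803 to 1560 CPM in its control; none without knockout 2 or control 2 of that cross), with a list median of -0.59, while Cd80, Cd86, Icosl and Cd40 were lower too. None of the 8 was called in the triple knockout by edgeR, DESeq2 or limma-voom (5 at an unadjusted p under 0.05). The list median there was -0.71, and the sums were 602 to 730 CPM against 782 to 1170 CPM in its control. No gene of the list was called by edgeR for the Vhl/Hif2a effect minus the triple effect, so these effects were not shown to differ.

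Several ligands are also made by dendritic cells, so the markers of those cells are given here. Over all genes, 7.01% were called lower and 7.68% higher in the Vhl/Hif2a knockout. In the Vhl/Hif2a knockout 4 of 10 dendritic cell markers and 4 of 10 mature dendritic cell markers fell, and 1 of the second list, Cd83, rose (0.35, edgeR adjusted p 0.02). The list medians were -0.92 and -1.48, against 0 over all genes. The first list summed to 116 to 148 CPM in the knockout and 116 to 142 CPM in the control, and the second to 153 to 177 CPM in the knockout and 166 to 213 CPM in the control. These sums are carried by a few abundant genes, Cd24a in the first (119 CPM in the knockout and 112 CPM in the control) and Cd83 and Socs2 in the second (79.2 and 48.8 CPM in the knockout, 62.2 and 48.9 CPM in the control). Ccr7, the receptor that guides mature dendritic cells, had 2.48, 2.33 and 3.23 CPM in the Vhl/Hif2a knockout, against 18.4, 16.9 and 7.3 CPM in its control (-2.40 ± 0.33, edgeR adjusted p 6.5e-05). Fscn1, an actin bundler of those cells, had 1.95, 2.61 and 3.71 CPM in the knockout, against 19.3, 17.5 and 7.06 CPM in its control. Flt3 averaged 1.14 ± 0.213 CPM in the knockout and 3.60 ± 1.24 CPM in the control. No defining marker of either list was at 0 in all 18 libraries. Neither list had a call in the Vhl/Hif1a or triple knockout by edgeR, DESeq2 or limma-voom; at an unadjusted p under 0.05 the first list had 1 and 0 genes there and the second 1 and 1. Cd83 lost its call without knockout 1, control 1 or control 2 of the Vhl/Hif2a cross, and only 1 dendritic cell marker fell without Vhl/Hif2a control 1 or 2. The part of these cells in the falls of Cd80, Cd86, Icosl and Cd40 was not tested. Ccr7 and Fscn1 were singled out after their values were seen.

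Some markers of other myeloid cells changed as well, where 14.7% of all genes were called in the Vhl/Hif2a knockout and 3.64% in the Vhl/Hif1a knockout. The 10 monocyte and interstitial macrophage markers summed to 67.3 to 95.6 CPM in the Vhl/Hif2a knockout, against 21.8 to 38.7 CPM in its control, and to 40.3 to 52.8 CPM in the Vhl/Hif1a knockout, against 28.5 to 33.6 CPM in its control. Itgam and Ccr2 carried most of the Vhl/Hif2a sums (44.2 and 19.7 CPM in the knockout, 6.34 and 11.1 CPM in the control). The Vhl/Hif1a sums differed mainly through Itgam and F13a1 (13.3 and 10.1 CPM in the knockout, 5.25 and 0.246 CPM in the control). The list medians were -0.15 in the Vhl/Hif2a knockout and -0.11 in the Vhl/Hif1a knockout, against 0 over all genes. Of 9 tested, Itgam, an integrin chain (2.8 ± 0.21, edgeR adjusted p 6.7e-08), and the chemokine receptor Ccr2 (0.84 ± 0.22, 0.016) rose in the Vhl/Hif2a knockout and the complement gene C1qb fell (-1.71 ± 0.48, 0.022). C1qb lost its call without knockout 1, knockout 3, control 1 or control 2 of that cross, and the count of rises was 1 without control 2 or control 3. Itgam (1.34 ± 0.21, 7e-04) and F13a1, a coagulation factor subunit (5.27 ± 0.72, 2e-04), rose in the Vhl/Hif1a knockout. Itgam was also called in the triple knockout (1.25 ± 0.21, edgeR adjusted p 0.035), but not by limma-voom, nor when any library of that cross was left out. None of these 10 markers was at 0 in all libraries of any group. The 8 neutrophil markers summed to 126 to 151 CPM in the Vhl/Hif2a knockout, against 122 to 193 CPM in its control, and to 74 to 82.4 CPM in the Vhl/Hif1a knockout, against 149 to 165 CPM in its control. Of 6 tested, S100a8 rose by 1.63 in the Vhl/Hif2a knockout and 1.16 in the Vhl/Hif1a knockout. Csf3r (-1.07) and Cxcr2 (-1.79) fell in the Vhl/Hif2a knockout, and Csf3r (-1.37) and Cxcr2 (-1.45) also fell with Vhl and Hif1a targeted, all with an edgeR adjusted p of at most 0.0014. Mmp8 fell there too (-0.80, 0.047), a call lost when any library of that cross was left out. Ly6g, a defining neutrophil marker, was at 0 in every library. The part of these cells in the ligands' changes was not tested.

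**Figure D5:**
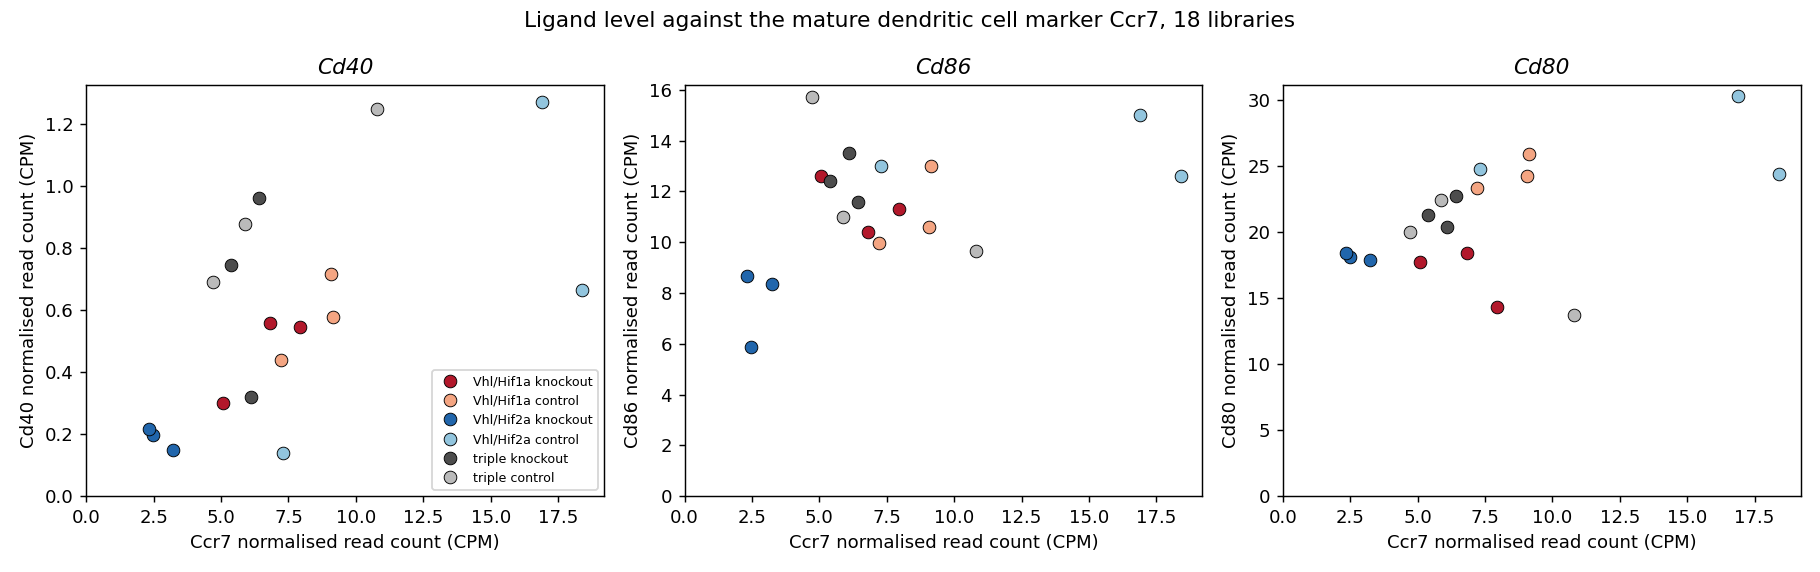
CPM of Cd40, Cd86 and Cd80 (vertical axes) against CPM of Ccr7 (horizontal axes) in the 18 libraries, coloured by group. The 3 Vhl/Hif2a knockout libraries lie lowest on Ccr7, 2.33 to 3.23 CPM, and Vhl/Hif2a control 3, with the lowest Cd40 of all, 0.139 CPM, had 7.3 CPM of Ccr7.

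Among 9115 genes with a mean of at least 5 CPM, those whose log2(CPM + 1) followed Tnfsf9 most closely over the 18 libraries were Vegfa (r = 0.978), Gpi1 (0.978) and Mgarp (0.976). These values carry the difference between groups; centred on each group's mean, the closest were Atf4 (0.862), Ndufb5 (0.833) and Dgkd (0.819). Icosl was followed by Tnfsf13b both ways (0.954 and 0.834 centred), and then Fcgr1 (0.918) and Cd300lb (0.91). Cd80 was followed by Tgfbr1 (0.952), Ddhd1 (0.906) and Il1rap (0.9). Cd86 was followed by Pigk (0.866), Cd274 by Cyp2r1 (0.8), Pdcd1lg2 by Cyp20a1 (0.853) and Cd40 by Aurkb (0.801), each the highest of its kind. Among the ligands themselves, Cd86 and Icosl correlated at 0.71 (0.53 centred), and Tnfsf9 correlated at -0.83 with each of them (-0.64 and -0.45 centred). These are descriptions of libraries that share groups and scaling, with no test. The uncentred values of Tnfsf9 mainly carry its level in the Vhl/Hif2a knockout, the group through which it passed the filter. Elsewhere it had at most 12 counts in any library, which limits its centred values.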

How the data were processed

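PolyA RNA of alveolar macrophages was sequenced in 18 libraries, 3 in each of 6 groups named in the sample titles. Values in the deposited table were taken for expected counts of 32789 genes, since 89.25% of them were whole. Per the submitters' processing notes the authors used FastQC, cutadapt and STAR on GRCm38; the counting tool, versions and strand setting were not given in the sources used here.

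Expected counts were rounded. filterByExpr (edgeR; minimum count 10, minimum total 15) left 12900 genes with 99.967% of all counts. TMM scaling and edgeR's quasi-likelihood test were applied to all 18 libraries, with 1 coefficient per group and no covariate, and a call is a Benjamini-Hochberg adjusted p under 0.05 over all genes. The SE is the log2 fold change divided by the square root of F, and intervals use 12 degrees of freedom. Exact permutation tests compared mean CPM. Intervals on counts cover counting error only. Positions are from GENCODE M21 (GRCm38). On simulated data with 12900 genes, 82% of 2-fold and 97% of 4-fold changes were recovered for the Vhl/Hif2a comparison, with 8 false calls. The simulation gave every gene the same biological coefficient of variation, 0.141, and no library that stood apart. It therefore does not give the recovery for genes that vary more between libraries, such as Cd40. Named genes are the 7 members, called genes of 3 signalling lists and the 3 genes most like each member; others were singled out after their values were seen, and some genes of the lists are not reported here by name. The members and lists were chosen with earlier results of these data known. Alternatives were other scalings, filters, tests and sample sets, a replicate block, and leaving out each library; joining Tnfsf9 with Gm11110 was added after seeing the data. R 4.3.3, edgeR 4.0.16, limma 3.58.1 and DESeq2 1.42.0 were used.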

Additional observations from a re-analysis of the deposited data

Results flagged for a closer look

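The effect on Tnfsf9, the 4-1BB ligand gene, differed between crosses in an interaction test. The Vhl/Hif1a effect minus the Vhl/Hif2a effect was -4.92 ± 0.87 on the log2 scale (edgeR adjusted p 0.0036), with 3 of 3 Vhl/Hif2a knockout libraries above every other library. Tnfsf9 passed the filter on low counts through that group, so it could be tested only because it is high there. The Vhl/Hif2a effect minus the triple effect was 6.16 ± 1.11 for Tnfsf9 (edgeR adjusted p 0.0019), and 5.23 without triple control 2 (edgeR adjusted p 0.025).

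Cd80 and Cd86 also differed between the Vhl/Hif2a and triple effects. For Cd80 the difference was -0.75 ± 0.20 (edgeR adjusted p 0.03), and for Cd86 it was -0.87 ± 0.25 (edgeR adjusted p 0.04). In each case 3 of 3 Vhl/Hif2a knockout libraries lay below every library of their control, while the triple groups overlapped. The Cd80 difference includes triple control 2, the library that stood apart. Without it Cd80 was -0.57 (edgeR adjusted p 0.024) and Cd86 was -0.73 (edgeR adjusted p 0.069). Part of the Cd80 difference lies between the controls, with means of 26.5 CPM in the Vhl/Hif2a control and 18.7 CPM in the triple control. The log2 difference between those controls was 0.50 ± 0.14 (edgeR adjusted p 0.064), and 0.33 without triple control 2. The knockout means of Cd80 were 18.1 CPM (Vhl/Hif2a) and 21.5 CPM (triple).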

How the results depend on the processing

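Over 28 alternatives, the 63 member results gave 1727 pairs, of which 1648 stayed on the same side of the threshold, 69 lost a call, 10 gained one and 0 reversed. A change of sign counted as reversed only where the main or the alternative result was called. Uncalled values did change sign, such as Tnfsf9 in the Vhl/Hif1a knockout, which ran from -0.77 to 0.25. The rises and falls of Tnfsf9, Icosl and Cd86 in the Vhl/Hif2a knockout, and the Tnfsf9 differences between effects, kept their calls in every alternative run. Members called in the Vhl/Hif1a knockout numbered 2, but 0 with upper-quartile factors (edgeR adjusted p 0.051 for Cd80 and 0.053 for Icosl), 1 with no filter on low counts, and 0 to 2 with 1 library left out. In the Vhl/Hif2a knockout 5 were called, Tnfsf9 included, 3 to 5 with 1 library left out; Cd40 lost its call with limma-voom (-1.43, adjusted p 0.20), with no filter (edgeR adjusted p 0.051) and in 15 of the leave-one-out fits. For the Vhl/Hif2a minus triple effect, 3 were called, Tnfsf9 included. That count was 1 with only the groups compared in the fit, and 1 to 3 with 1 library left out. For the Vhl/Hif1a minus Vhl/Hif2a effect, 1 was called (Tnfsf9), 2 with DESeq2, which added Cd86, and 1 to 2 with 1 library left out. For the Vhl/Hif1a minus triple effect, 0 were called by edgeR (1 at an unadjusted p under 0.05), 1 with DESeq2 and 0 to 1 with 1 library left out. Between the controls of the Vhl/Hif2a and triple crosses 0 were called by edgeR (2 at an unadjusted p under 0.05), 1 with DESeq2 and 0 to 1 with 1 library left out; between the Vhl/Hif1a and triple controls it was 0 to 1. Over all genes, the 469 calls of the Vhl/Hif1a knockout ranged from 275 to 861, the 1895 of the Vhl/Hif2a knockout from 1249 to 2907, and the 5 of the triple knockout from 2 to 11.

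Replicate numbers were not used to pair the samples in the main fit. Deviations from the group means correlated at -0.291 to 0.234 between same-numbered knockout and control libraries. Between differently numbered libraries they correlated at -0.311 to 0.321. With 3 libraries per group, these values cannot decide whether the numbers pair samples. With the replicate block, 0 members were called in the Vhl/Hif1a knockout (adjusted p by edgeR 0.10 for Cd80 and 0.054 for Icosl), 4 in the Vhl/Hif2a knockout, where Cd40 was lost (-1.65, 0.11), and 1 for the Vhl/Hif2a minus triple effect. The block could not be fitted to the contrasts between controls. Depth limits Cd40, with at most 33 counts in any library, and Tnfsf9, with at most 12 outside the Vhl/Hif2a knockout. The cause of these shifts was not tested.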

Other observations

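Genes near Tnfsf9 were looked at after the values were seen. Over all genes, 7.68% were called higher in the Vhl/Hif2a knockout and 7.01% lower. Of 8 tested genes within 100 kb, 4 rose in the Vhl/Hif2a knockout: Gm11110 (3.77), Tubb4a, 17.5 kb away (2.25, edgeR adjusted p 0.0069), Slc25a23 at 45.5 kb (1.64, 0.0011) and Dennd1c at 26.8 kb (0.41, 0.041). The complement gene C3, at 96.2 kb, fell there (-1.67, 3.1e-07) and in the Vhl/Hif1a knockout (-0.56, 0.03). None of the 8 was called in the triple knockout. The cytokine gene nearby, Tnfsf14 at 81.7 kb, was not called in the Vhl/Hif2a knockout (-0.54, 0.56).

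Plgrkt, which lies 0.065 kb from Cd274 on the other strand, fell in the Vhl/Hif2a knockout (-0.37, edgeR adjusted p 0.026), while Cd274 was not called. Tnfrsf9, encoding 4-1BB, the receptor of the Tnfsf9 product, was the only 1 of 6 T cell receptors for these ligands to pass the filter. It had 1.09, 3.35 and 3.99 CPM in the Vhl/Hif1a knockout, against 0.844, 1.06 and 1.12 CPM in its control, with overlapping ranges (1.47 ± 0.43, edgeR adjusted p 0.079).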
